A study of Mus musculus with 6 samples.

Results

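The genes of replication origin licensing and the replication fork were followed in mouse mammary tumour cells in 2 states. They were 46 genes taken by symbol from a table of 41795 features, and each symbol matched a single row. RNA was sequenced from 3 libraries labelled activated cancer stem cells (CSCs) and 3 labelled quiescent CSCs, all from breast tissue of the FVB/N-Tg(MMTV-PyVT)634Mul/J strain. Its transgene, shared by both states, is the middle T oncogene of polyoma virus driven in mammary epithelium by the MMTV promoter. CSCs are thought to be the tumour cells able to self-renew and to seed new growth, and quiescence is a reversible rest from division. The labels do not give how cells were isolated or activated, the age of the animals, or whether libraries of a state came from separate animals or cultures. The p-values therefore measure only the spread between these libraries, which may be technical.

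Replication is prepared in G1, when the origin recognition complex (ORC), CDC6 and CDT1 load the ring-shaped MCM2-7 helicase onto DNA, a step called licensing. In S phase the kinases CDC7-DBF4 and CDK switch the helicase on by adding CDC45 and the GINS complex, and polymerases, the PCNA clamp, its loader and the RPA single-strand binding protein then assemble into a fork. Many of these genes are known targets of E2F factors, and MCM proteins are known to be lost from cells that leave the cell cycle for long.

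The replication genes moved together, and by modest amounts. Of the 46 genes 40 were higher in activated CSCs, 2 were lower and 4 did not pass the test. All 46 passed the filter on low counts. The test was edgeR's quasi-likelihood test with Benjamini-Hochberg adjustment over all 15223 genes tested and a threshold of 0.05. It called 24.1% of all genes higher and 23.4% lower. The median log2 fold change, activated over quiescent, was 0.52 over the 46 genes, a 1.44-fold difference, and -0.003 over all genes tested. Folds of the genes called higher ran from 1.14 for Gins4 to 2.05 for Dbf4. With a log2 fold change of at least 1 also required, Dbf4 alone remained, where 5.94% of all genes were called higher. Every activated library lay above every quiescent library in 39 of the 46 genes, and below in 2, against 27.9% and 28% of all genes tested. In bulk RNA, fewer cells in cycle and less RNA of these genes per cell cannot be told apart.

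**Figure D1:**
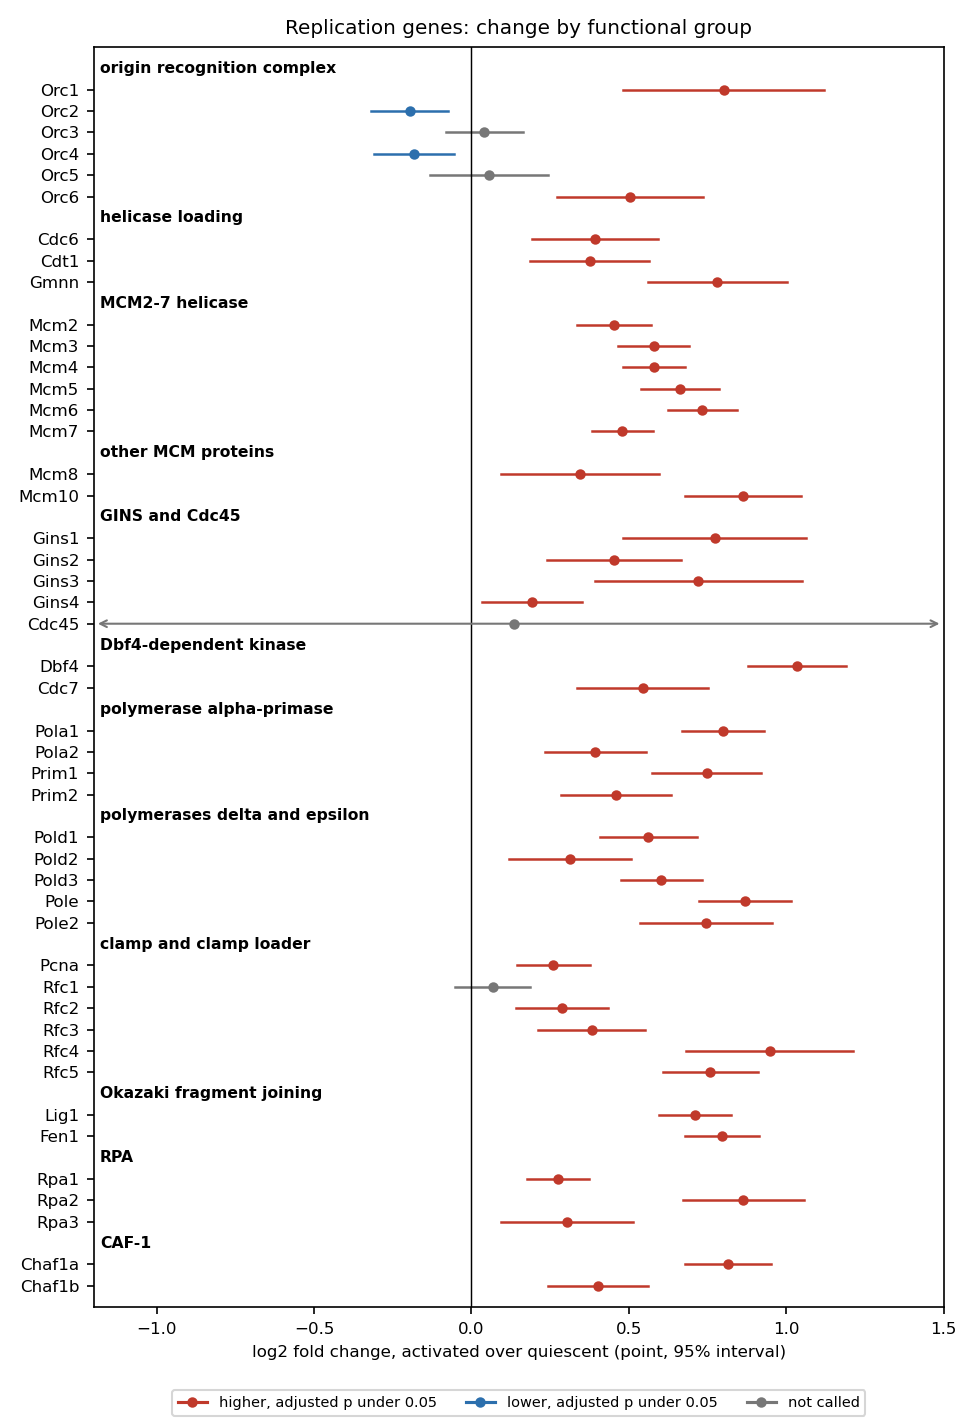
Log2 fold change of each of the 46 replication genes, activated over quiescent CSCs, in 12 functional groups, with its 95% interval. Points to the right of 0 were higher in activated CSCs. Orc2 and Orc4 lie to the left, Orc3, Orc5, Cdc45 and Rfc1 were not called, and the arrows of Cdc45 mark an interval from -3.39 to 3.66 that runs past the axis.

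Together the 46 genes took 0.191 to 0.194% of the counts of activated libraries and 0.138 to 0.141% of those of quiescent libraries. Totals ran from 17842568 to 20510377 counts in activated and from 17785331 to 19145576 in quiescent libraries. Levels are given as CPM, counts scaled to a common library size after TMM correction, so they are relative to the other RNAs of a library. Cdc45 aside, a replication gene had 68 to 3213 counts per library. Activated replicate 1 differed more from the other activated libraries than they did from each other, with a chi-square per degree of freedom of 5.53 and 6.03 against 1.98. The quiescent pairs were at 2.25, 3.05 and 3.33. Without activated replicate 1, 40 of the 46 genes were still higher and 2 lower, where 3787 of 15578 genes tested were higher and 3572 lower. Leaving out activated replicate 2 cost the most calls, with 36 of the 46 higher and 1 lower. In that fit 3358 of 15592 genes were higher and 3169 lower. Epithelial genes were abundant in both states, with a summed level of 6814 to 7011 CPM in activated and 7349 to 7640 CPM in quiescent libraries over 7 markers. Of these 2 were higher, Krt19 (2.70-fold) and Krt14 (1.24-fold), and 2 lower, Epcam (0.73-fold) and Cdh1 (0.80-fold). Krt8, Krt18 and Krt5 were not called. Among all genes tested 24.1% were called higher and 23.4% lower. The stem cell state was not checked by these markers.

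Markers of other cells moved beside the replication genes. The shares to set their counts against are 24.1% of all genes tested called higher and 23.4% called lower. Of 8 fibroblast markers 7 were higher, with summed levels of 1462 to 1614 CPM in activated and 825 to 851 CPM in quiescent libraries. Most of this sum was collagen RNA. Col1a1 averaged 592 CPM in activated and 269 CPM in quiescent libraries, Col1a2 366 and 237 CPM, and Col3a1 306 and 111 CPM. Of the others, Thy1 rose 2.14-fold, Pdgfrb 1.52-fold, Lum 1.24-fold and Dcn 1.22-fold, and Pdgfra was not called (adjusted p = 0.67). Of 8 myeloid markers 5 were higher and 1 lower, with summed levels of 1139 to 1154 CPM in activated and 768 to 822 CPM in quiescent libraries. Most of this sum was Cd14, which averaged 702 CPM in activated and 441 CPM in quiescent libraries, and Lyz2, at 260 and 206 CPM. Cd163 rose 2.73-fold, Itgam 1.48-fold and Csf1r 1.37-fold. Cd68 was lower (0.88-fold, adjusted p = 0.027), and Ptprc (0.065) and Adgre1 (0.76) were not called. Ptprc was far below Cd14, at 7.13 CPM in activated and 5.73 CPM in quiescent libraries. The 5 endothelial markers summed to 2.78 to 4.0 CPM in activated and 2.71 to 3.66 CPM in quiescent libraries, and none of the 3 tested was called. The 6 T and NK cell markers summed to at most 0.224 CPM in activated and 0.506 CPM in quiescent libraries, with Cd3g and Nkg7 at 0. The 4 erythroid markers summed to at most 0.635 CPM in activated and 0.758 CPM in quiescent libraries, with Hba-a1 and Hbb-bs at 0. Which cells these marker RNAs came from, and the part of fibroblast and myeloid cells in the differences of replication genes, were not tested.

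Because the genes moved together, their promoters were searched for the E2F site, which E2F factors are known to bind in many replication genes. The letters searched were TTTCCCGC, TTTGGCGC, TTTCGCGC and TTTGCCGC, on both strands, with overlapping matches counted separately. RefSeq promoter windows of GRCm38.p6, from 250 bases before to 50 bases after a start, were found for 38 of the 46 genes and not for Gmnn, Mcm4, Gins1, Gins2, Gins4, Prim2, Pole and Rfc2. At least 1 match was found in 16 of the 38 genes (42.1%), against 4.45% of 11353 tested genes with a window. Over single windows the share was 34.0% of 47, against 2.27% of 32851 windows in all. The sites shown are those that lie upstream of the start together with 15 flanking bases on each side. No site is shown for Mcm3, Mcm8, Cdt1, Lig1, Pold1, Pold3 and Pole2, whose matches begin after the start. Rfc3 is left out too, though a match begins 10 bases before its start. The sites shown are printed 5′ to 3′ on the gene's strand, with the matched letters in capitals. They let the shared core be compared between genes of licensing, the helicase and the polymerase.

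Orc1, chr4:108579412-108579449, plus strand: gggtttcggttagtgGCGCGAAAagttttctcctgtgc
Cdc6, chr11:98907998-98908035, plus strand: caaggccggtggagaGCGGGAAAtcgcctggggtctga
Mcm5, chr8:75109341-75109382, plus strand: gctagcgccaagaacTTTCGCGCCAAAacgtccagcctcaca
Mcm6, chr1:128359730-128359767, minus strand: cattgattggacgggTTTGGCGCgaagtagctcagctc
Mcm7, chr5:138172026-138172063, minus strand: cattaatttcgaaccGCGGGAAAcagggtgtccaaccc
Gins3, chr8:95633503-95633540, plus strand: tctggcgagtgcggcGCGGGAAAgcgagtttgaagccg
Pola1, chrX:93632271-93632308, minus strand: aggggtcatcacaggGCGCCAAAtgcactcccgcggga
Orc3, chr4:34614961-34614998, minus strand: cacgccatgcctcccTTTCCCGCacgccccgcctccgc

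The Mcm5 stretch holds 2 overlapping matches on opposite strands. Mcm6, the MCM2-7 gene with the largest rise, had 3 matches, the most of the windows searched here among the 46 genes. Its 250 bases before the start (chr1:128359706-128359955, minus strand, RefSeq, GRCm38.p6) show a site 47 bases before the start and an overlapping pair that begins 110 bases before it.

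Mcm6: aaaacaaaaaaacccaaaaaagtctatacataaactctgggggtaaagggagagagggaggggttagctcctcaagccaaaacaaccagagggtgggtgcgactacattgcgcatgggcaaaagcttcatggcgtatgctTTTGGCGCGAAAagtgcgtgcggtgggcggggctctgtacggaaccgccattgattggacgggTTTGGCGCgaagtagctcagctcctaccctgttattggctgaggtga

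Genes rose with and without a match. Of the 16 genes with a match 15 were called higher, and Orc3, with the site shown above, was not called. Of the 22 genes without a match 17 were also called higher, 2 lower and 3 not called. The 17 included Dbf4, the gene with the largest fold. Other spellings of the site and bases outside the windows were not searched, so genes without a match may still have an E2F site. Median log2 fold changes were 0.59 with a match and 0.43 without, a difference that was not tested.

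The subunits of ORC, which marks origins, split by subunit. Orc1, the subunit known to be made and degraded with the cell cycle, had 6.38, 7.17 and 8.11 CPM in activated and 4.67, 3.68 and 4.10 CPM in quiescent CSCs. It rose 1.74-fold (log2 0.80, SE 0.15, adjusted p = 0.00032). The states did not overlap, and 68 or more counts stood behind each value. Orc6, the smallest subunit, had 25.6, 19.2 and 23.5 CPM in activated and 14.8, 17.9 and 15.6 CPM in quiescent CSCs, and rose 1.42-fold (adjusted p = 0.0013). Its activated libraries were spread more widely than its quiescent ones but stayed above them.

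The core subunits did not share this rise. Orc2 (chromosome 1, 58462771 to 58505109, minus strand, GRCm38) had 43.6, 39.7 and 40.2 CPM in activated and 49.0, 45.3 and 47.0 CPM in quiescent CSCs. It fell by 0.20 on the log2 scale (SE 0.06, adjusted p = 0.010), with every activated library below every quiescent one. Orc4 (chromosome 2, 48902754 to 48950272, minus strand), an ATP-binding subunit, had 43.4, 43.6 and 42.8 CPM in activated and 53.0, 49.0 and 45.6 CPM in quiescent CSCs. It fell by 0.18 (SE 0.06, adjusted p = 0.018), also with no overlap. Both falls are small, and both calls ended when single libraries were left out. The log2 fold changes kept their sign over 16 other settings, at -0.23 to -0.17 for Orc2 and -0.24 to -0.13 for Orc4. The Orc2 call ended without quiescent replicate 1 (adjusted p = 0.063) and without activated replicate 2 (0.054), over a range of 0.0014 to 0.063. Leaving out quiescent replicate 1 (0.13), quiescent replicate 2 (0.051) or activated replicate 3 (0.0504) ended the Orc4 call, over a range of 0.0074 to 0.13. On the opposite strand Orc4 overlaps Mbd5 by 783 bases and Acvr2a by 511 bases, with 68.4% and 75.5% of its counts.

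Orc3 and Orc5, the remaining core subunits, were not called. Orc3 had 42.7, 40.7 and 41.3 CPM in activated and 38.1, 42.2 and 40.9 CPM in quiescent CSCs (log2 0.04, 95% interval -0.08 to 0.16, adjusted p = 0.59). Orc5 had 17.6, 20.2 and 17.8 CPM in activated and 19.2, 16.9 and 17.3 CPM in quiescent CSCs (log2 0.06, 95% interval -0.13 to 0.24, adjusted p = 0.64). In both the libraries of the states were interleaved. The count ratio of Orc1 to Orc2 within a library, which needs no scaling, was 0.147, 0.181 and 0.201 in activated and 0.0952, 0.0811 and 0.0872 in quiescent CSCs. It was 1.99-fold higher in activated CSCs (exact two-sided permutation test, p = 0.1, the smallest that 3 against 3 libraries allow, 0.125 adjusted over 5 ratios).

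Per length, Orc1 was the scarcest ORC subunit in both states. It stood at 1.67 ± 0.199 CPM per kilobase of gene length in activated and 0.958 ± 0.115 in quiescent CSCs (SD, n = 3). The other 5 subunits averaged 6.41 (Orc3) to 13.8 (Orc6) CPM per kilobase in activated and 6.23 (Orc3) to 13.2 (Orc2) in quiescent CSCs. The range of Orc1 over the 6 libraries lay below that of every other subunit. Orc1 overlaps Prpf38a by 3717 bases on the opposite strand. Prpf38a has 523% of its counts, and no source used here says whether counting used strand.

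All 3 helicase loading genes were higher. CDC6 is the ATPase that joins ORC at the origin, and Cdc6 had 18.3, 18.6 and 21.4 CPM in activated and 13.6, 14.7 and 16.1 CPM in quiescent CSCs, a 1.31-fold rise (adjusted p = 0.0024). Cdt1, which encodes the protein that brings the helicase to the origin, had 27.6, 25.7 and 24.4 CPM in activated and 18.4, 18.8 and 22.6 CPM in quiescent CSCs, 1.3-fold (adjusted p = 0.0022). Gmnn, which encodes geminin, the inhibitor that binds CDT1 after S phase has begun, had 17.2, 22.3 and 18.7 CPM in activated and 10.6, 12 and 11.2 CPM in quiescent CSCs, 1.72-fold (adjusted p = 9.4e-06). None of these 3 genes had overlapping states.

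The balance of inhibitor to activator in RNA was not resolved, and protein was not measured. The count ratio of Gmnn to Cdt1 was 0.623, 0.870 and 0.768 in activated and 0.578, 0.638 and 0.498 in quiescent CSCs. It was 1.31-fold higher in activated CSCs, with 1 quiescent library above 1 activated library (exact two-sided permutation test, p = 0.2, 0.2 adjusted over 5 ratios).

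The 6 genes of the MCM2-7 helicase, the motor that unwinds DNA at the fork, all rose within a narrow band. Mcm2 rose least, with 77.0, 84.4 and 76.5 CPM in activated and 55.1, 60.1 and 58.7 CPM in quiescent CSCs (log2 0.45, SE 0.06, adjusted p = 3.9e-06). Mcm6 rose most, with 116, 110 and 113 CPM in activated and 63.3, 71.2 and 69.7 CPM in quiescent CSCs (log2 0.73, SE 0.05, adjusted p = 3.9e-09). Folds of Mcm3, Mcm4, Mcm5 and Mcm7 were 1.49, 1.49, 1.58 and 1.39. The states did not overlap in any of the 6 genes.

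Levels per length of 5 of the 6 subunits were close within each state. Mcm2, Mcm3, Mcm4, Mcm5 and Mcm6 averaged 23.5 to 26.3 CPM per kilobase in activated and 15.4 to 17.6 in quiescent CSCs. Mcm7 stood above them, at 37.6 ± 0.821 CPM per kilobase in activated and 27.0 ± 0.938 in quiescent CSCs (SD, n = 3). Its lead was present in each of the 6 libraries. Of the 31-base words of the longest Mcm7 transcript 37.6% are also found in Gm5487, which averaged 6.5 counts per library, and 3 microRNA genes that lie inside Mcm7 averaged 4.0 counts or fewer.

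**Figure D2:**
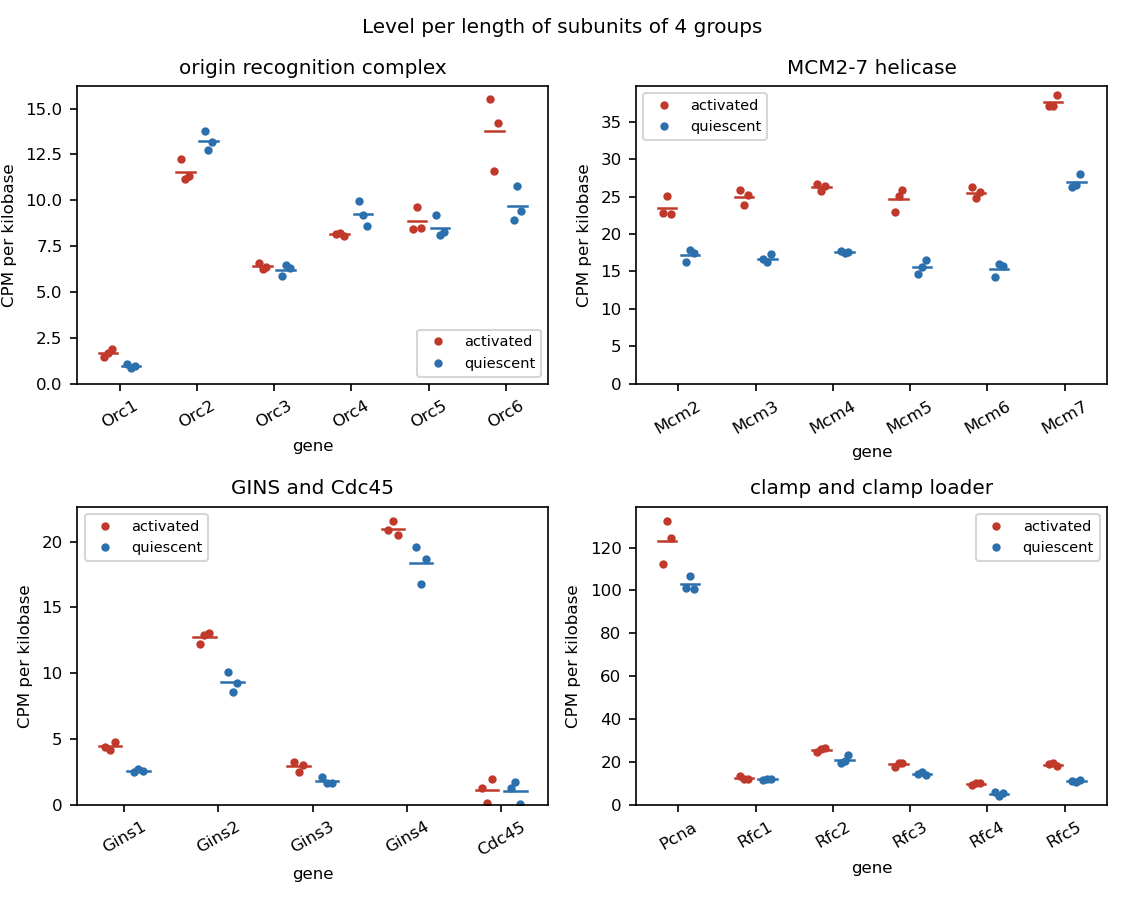
Level per length (CPM per kilobase of gene length) of the subunits of ORC, MCM2-7, GINS with Cdc45, and the clamp with its loader, in activated and quiescent CSCs. Points are the 3 libraries of a state and bars their mean. Orc1 lies lowest in ORC, 5 MCM subunits lie at 23.5 to 26.3 in activated CSCs and Mcm7 at 37.6, and the points of Cdc45 spread down to near 0.

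A further 2 MCM proteins act outside the ring. Mcm10, which encodes a factor that helps the loaded helicase start, had 20.1, 19.3 and 21.3 CPM in activated and 10.6, 11.5 and 11.3 CPM in quiescent CSCs, a 1.82-fold rise (adjusted p = 3.6e-07). Mcm8, whose product works with MCM9 in recombination repair, had 9.18, 9.20 and 8.79 CPM in activated and 7.42, 7.68 and 6.30 CPM in quiescent CSCs. It was called higher at 1.27-fold (adjusted p = 0.024), a call that ended with DESeq2 (0.078), without quiescent replicate 3 (0.11) and without activated replicate 2 (0.067), over a range of 0.018 to 0.11. Mcm9, its partner, was not among the 46 genes and was at 15.4 ± 1.55 CPM in activated and 15 ± 1.85 CPM in quiescent CSCs (adjusted p = 0.80).

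GINS, the 4-subunit complex that joins the helicase when origins fire, had all 4 genes called higher. Gins1 had 7.05, 6.74 and 7.62 CPM in activated and 4.05, 4.33 and 4.15 CPM in quiescent CSCs, 1.71-fold (adjusted p = 0.00018). Gins3 rose 1.65-fold and Gins2 1.37-fold. Gins4, at 28.4, 29.4 and 27.9 CPM in activated and 26.7, 22.9 and 25.4 CPM in quiescent CSCs, had the smallest difference and the least secure call (1.14-fold, adjusted p = 0.043). That call ended under 7 of 16 other settings, among them DESeq2 (0.094), the replicate block (0.056) and leaving out quiescent replicate 2 (0.18), quiescent replicate 3 (0.072), activated replicate 2 (0.13) or activated replicate 3 (0.054), over a range of 0.029 to 0.18. The 4 subunits, which stand in equal numbers in the complex, were not alike in RNA. Per kilobase Gins4 was at 21 ± 0.548 CPM in activated and 18.3 ± 1.43 in quiescent CSCs, and Gins3 at 2.94 ± 0.383 in activated and 1.78 ± 0.255 in quiescent CSCs (SD, n = 3).

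Cdc45, the partner of GINS in the active helicase, could not be compared. The gene (chromosome 16, 18780447 to 18811992, minus strand, GRCm38) had 107, 12 and 186 counts in activated and 107, 149 and 7 counts in quiescent libraries. Its log2 fold change was 0.14 with an SE of 1.29 (95% interval -3.39 to 3.66, adjusted p = 0.94). The counts were low in activated replicate 2 and in quiescent replicate 3, so the spread within each state was larger than any difference between states. Its highest CPM within a state was 21.9 times the lowest, whereas this ratio reached at most 1.39 in the other 45 genes. The sign turned without quiescent replicate 3 (log2 -0.42) and without activated replicate 3 (-0.53).

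Neighbours of Cdc45 on chromosome 16 also had unstable counts. Of 6 genes with a mean of at least 20 counts that start within 300 kb of it, Cdc45 included, each had a highest CPM at least 4.96 times the lowest over the 6 libraries. Ufd1l, which overlaps Cdc45 on the opposite strand by 174 bases, had 359, 433 and 249 counts in activated and 30, 674 and 416 in quiescent libraries. Mrpl40 had 130, 3 and 4 counts in activated and 10, 111 and 5 in quiescent libraries. Mrpl40 was low in activated replicate 2 and quiescent replicate 3, as Cdc45 was, and also in activated replicate 3 and quiescent replicate 1. Ufd1l differed from Cdc45 in its low library: quiescent replicate 3, lowest for Cdc45, had 416 counts of Ufd1l, and quiescent replicate 1, lowest for Ufd1l, had 107 of Cdc45.

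**Figure D3:**
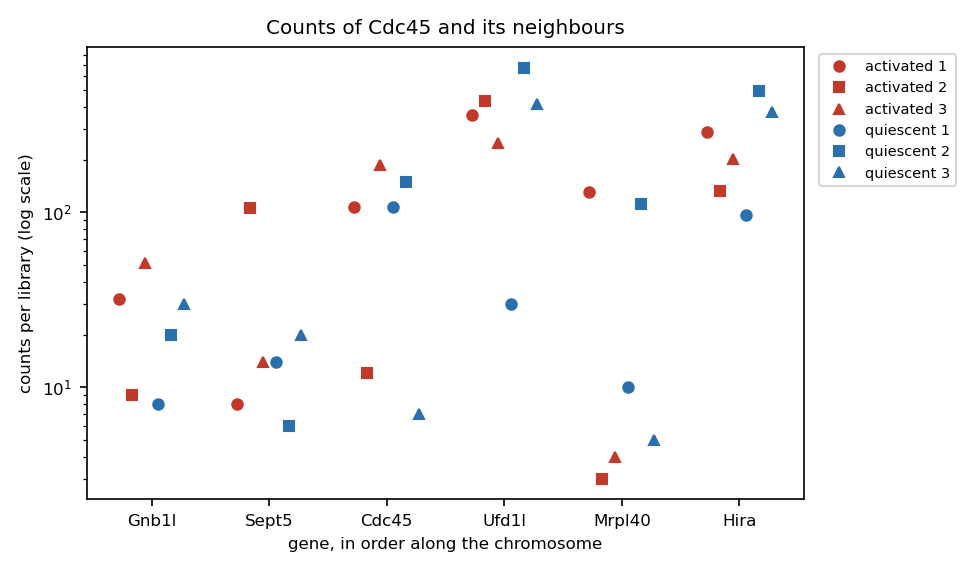
Counts of Cdc45 and 5 neighbouring genes in each library, on a log axis, with genes in their order along the chromosome and activated libraries left of quiescent ones within each gene. Cdc45 is at 12 counts in activated replicate 2 and 7 in quiescent replicate 3, against 107 to 186 in the other 4 libraries, while Ufd1l is lowest in quiescent replicate 1, at 30 counts.

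The kinase that fires origins gave the largest rise among the 46 genes. Dbf4 (chromosome 5, 8396969 to 8422723, minus strand), the regulatory subunit whose level is known to oscillate in the cycle, had 39.9, 36.0 and 35.7 CPM in activated and 19.0, 17.8 and 17.7 CPM in quiescent CSCs. It rose 2.05-fold (log2 1.03, SE 0.07, adjusted p = 4.3e-09). Cdc7, the catalytic subunit, had 15.4, 14.6 and 14.7 CPM in activated and 11.3, 9.63 and 9.72 CPM in quiescent CSCs, 1.46-fold (adjusted p = 0.00021). The count ratio of Dbf4 to Cdc7 was 2.59, 2.47 and 2.42 in activated and 1.68, 1.85 and 1.82 in quiescent CSCs, a 1.40-fold difference with no overlap (exact two-sided permutation test, p = 0.1, the smallest possible, 0.125 adjusted over 5 ratios).

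Polymerase alpha-primase, which lays the RNA-DNA primers, had all 4 genes higher. Pola1, its catalytic subunit, had 41.6, 39.7 and 41.8 CPM in activated and 23.4, 23.4 and 24.0 CPM in quiescent CSCs, 1.74-fold (adjusted p = 1.3e-08). Pola2, its accessory subunit, had 26.8, 29.2 and 25.4 CPM in activated and 20.8, 20.7 and 20.5 CPM in quiescent CSCs, 1.31-fold (adjusted p = 0.0004). Of the primase genes, Prim1, the catalytic subunit, was at 21.9 ± 1.15 CPM in activated and 13.1 ± 0.0923 in quiescent CSCs, and Prim2, the large subunit, at 22 ± 1.39 CPM in activated and 16 ± 0.597 in quiescent CSCs (SD, n = 3). The catalytic subunit of each pair had the larger fold, a difference between genes that was not tested.

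The 5 genes of polymerases delta and epsilon, which copy the lagging and leading strands, were called higher. Pole, the catalytic subunit of polymerase epsilon, had 40.2, 42.6 and 37.8 CPM in activated and 20.9, 22.4 and 22.7 CPM in quiescent CSCs, 1.83-fold (adjusted p = 1.9e-08). Its partner Pole2 rose 1.68-fold, Pold1, the catalytic subunit of polymerase delta, 1.48-fold, and Pold3 1.52-fold. The count ratio of Pole to Pold1 was 1.15, 1.09 and 0.894 in activated and 0.798, 0.859 and 0.855 in quiescent CSCs, 1.24-fold higher with no overlap (exact two-sided permutation test, p = 0.1, the smallest possible, 0.125 adjusted over 5 ratios).

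Pold2, the accessory subunit of polymerase delta, was the least separated of these. It had 30.5, 39.3 and 39.2 CPM in activated and 30.6, 29.2 and 28.0 CPM in quiescent CSCs, 1.24-fold (adjusted p = 0.011). Activated replicate 1 lay within the quiescent range, the only overlap among the 40 genes called higher. The call ended without quiescent replicate 3 (0.055) and without activated replicate 2 (0.052), over a range of 1.2e-05 to 0.055. Pold2 overlaps Aebp1, on the opposite strand and with 1074% of its counts, by 69 bases.

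PCNA, the sliding clamp, is loaded by replication factor C, whose large subunit is RFC1 and small ones RFC2 to RFC5. Pcna, the most abundant of the 46 genes in CPM, had 142, 167 and 157 CPM in activated and 127, 135 and 127 CPM in quiescent CSCs, a 1.2-fold rise (log2 0.26, SE 0.05, adjusted p = 0.0012). Of its transcript words 38.0% are shared with the pseudogene Pcna-ps2, which averaged 20 counts per library. Rfc4 had the largest rise of the loader, with 11.5, 12.1 and 12.6 CPM in activated and 7.14, 5.14 and 6.46 CPM in quiescent CSCs, 1.93-fold (adjusted p = 9.0e-06). It overlaps Eif4a2, on the opposite strand and with 3564% of its counts, by 185 bases.

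The loader subunits were not alike. Rfc5 rose 1.69-fold, Rfc3 1.3-fold and Rfc2 1.22-fold. Rfc1 was not called, with 74.5, 65.8 and 66.5 CPM in activated and 63.5, 66.1 and 67.6 CPM in quiescent CSCs (log2 0.07, 95% interval -0.05 to 0.19, adjusted p = 0.36). Its activated replicate 1 lay above the quiescent libraries and the other activated libraries among them.

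The genes that finish lagging-strand fragments rose with small errors. Fen1, the flap nuclease, had 67.0, 60.7 and 66.7 CPM in activated and 37.9, 36.6 and 37.5 CPM in quiescent CSCs, 1.74-fold (log2 0.80, SE 0.06, adjusted p = 3.3e-09). Lig1, the ligase that seals them, had 66.1, 63.8 and 69.6 CPM in activated and 39.2, 40.7 and 42.1 CPM in quiescent CSCs, 1.64-fold (adjusted p = 1.2e-08). Both genes had activated libraries well clear of the quiescent ones.

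RPA, the trimer that covers single-stranded DNA, rose unevenly. Rpa2, the subunit phosphorylated after damage, had 24.9, 30.1 and 29.5 CPM in activated and 14.1, 16 and 16.3 CPM in quiescent CSCs, 1.82-fold (adjusted p = 5.7e-07). Rpa1, the large DNA-binding subunit, had 106, 107 and 108 CPM in activated and 84.5, 92.8 and 88.0 CPM in quiescent CSCs, 1.21-fold (adjusted p = 0.00012). The 95% intervals of their log2 fold changes, 0.67 to 1.06 for Rpa2 and 0.18 to 0.37 for Rpa1, did not meet. Rpa3, the smallest subunit, had 12.9, 13 and 12.6 CPM in activated and 9.5, 10.7 and 11.1 CPM in quiescent CSCs (1.23-fold, adjusted p = 0.018). Its call ended with DESeq2 (0.062), without quiescent replicate 1 (0.088) and without activated replicate 2 (0.051), over a range of 0.014 to 0.088.

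Chromatin assembly factor 1 (CAF-1), which places histones on new DNA behind the fork, had both genes higher. Chaf1a, the large subunit, had 42.5, 44.5 and 48.6 CPM in activated and 26.5, 25.3 and 25.4 CPM in quiescent CSCs, 1.76-fold (adjusted p = 1.8e-08). Chaf1b had 30.3, 33.3 and 31.6 CPM in activated and 22.2, 24.0 and 25.9 CPM in quiescent CSCs, 1.32-fold (adjusted p = 0.00031). The count ratio of Chaf1a to Chaf1b was 1.40, 1.34 and 1.54 in activated and 1.2, 1.05 and 0.984 in quiescent CSCs, a 1.33-fold difference with no overlap (exact two-sided permutation test, p = 0.1, the smallest possible, 0.125 adjusted over 5 ratios).

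**Figure D4:**
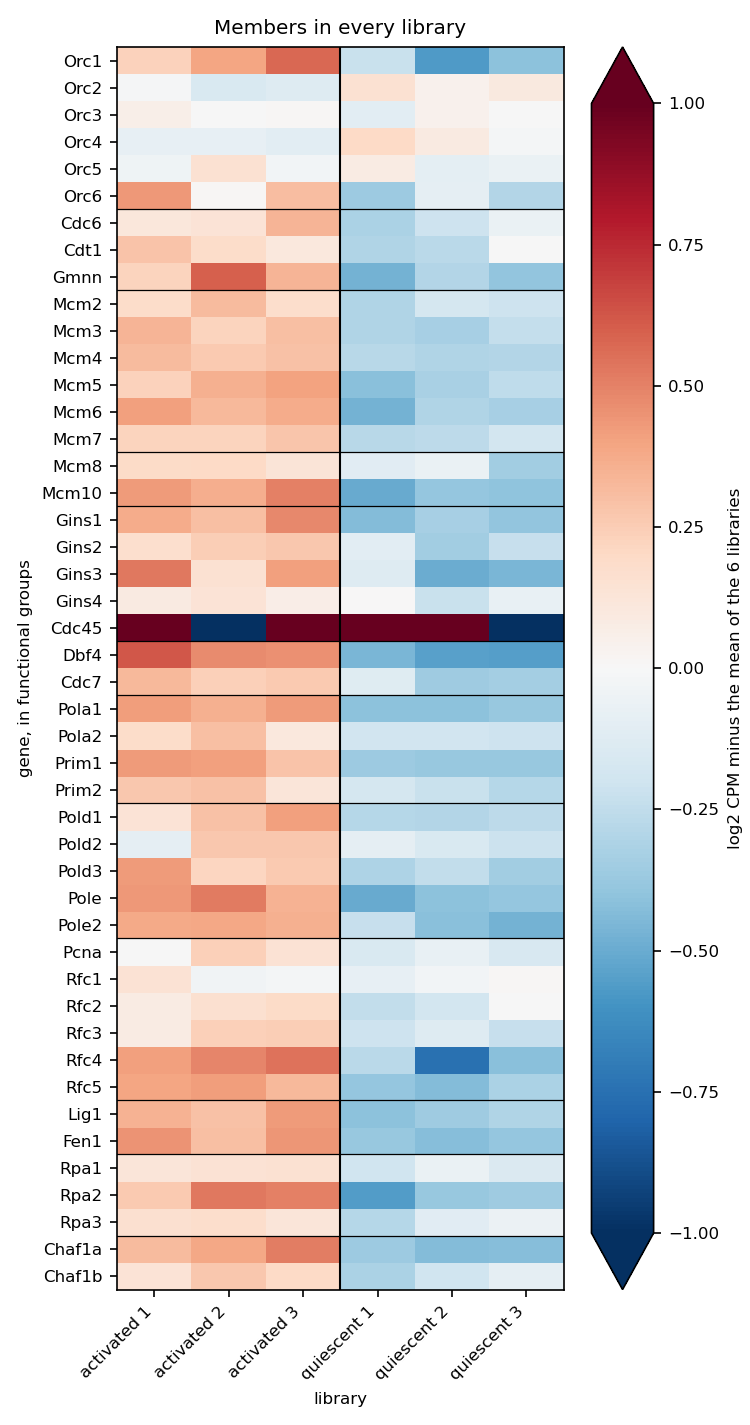
Each of the 46 genes in each library, as log2 CPM minus its mean over the 6 libraries, with activated libraries on the left and functional groups parted by lines. Most rows are red on the left and blue on the right. Orc2 and Orc4 are reversed, and Cdc45 runs past the colour scale in both states, from 0.368 to 9.08 CPM.

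Other genes of replication, taken from a list of 33, moved in part with the 46. Of 32 tested 20 were higher, 1 was lower and 11 were not called, where 24.1% of all genes tested were higher and 23.4% lower. The median of the 32 genes was 0.33 on the log2 scale. The smallest adjusted p belonged to 2810417H13Rik, which encodes a PCNA-binding protein, at 73.5, 73.3 and 70.5 CPM in activated and 24.7, 27.1 and 23.6 CPM in quiescent CSCs (2.88-fold, adjusted p = 1.6e-12). Clspn, which encodes the checkpoint mediator claspin, had 38.6, 34.1 and 35.9 CPM in activated and 18.7, 18.4 and 20.1 CPM in quiescent CSCs (1.90-fold, adjusted p = 2.0e-08). Dtl, whose product targets CDT1 for destruction in S phase, rose 1.76-fold (adjusted p = 1.2e-07) and Timeless, of the fork protection complex, 1.85-fold (1.5e-07). These 4 genes were picked by adjusted p. Over the list of 33, every activated library lay above every quiescent library in 23 genes and below in 2. Of all genes tested this held for 27.9% and 28%. Pole4, a small subunit of polymerase epsilon, fell by 0.29 on the log2 scale (adjusted p = 0.0053), at 26.4 ± 2.58 CPM in activated and 32.3 ± 1.68 CPM in quiescent CSCs (SD, n = 3). Pole4 thus moved against Pole and Pole2 of the same enzyme, while Pole3, also of this enzyme, was not called (1.12-fold, adjusted p = 0.084). Pold4, of polymerase delta, was at 0.056 to 0.21 CPM over the 6 libraries and was not tested.

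Set beside related cell cycle genes, the replication genes had smaller folds than those of mitosis. The median log2 fold change of 16 mitosis genes was 2.28, a 4.85-fold difference. Of these genes 15 were called higher, and the lowest log2 fold change of the 16 was 1.72. Over all genes tested 24.1% were called higher and 23.4% lower. Mki67, a marker of cycling cells, was at 239 ± 19.4 CPM in activated and 49.8 ± 1.37 CPM in quiescent CSCs (SD, n = 3). With Cdc45 and Kif11 aside, as genes of unstable counts, the highest upper 95% bound of the other 45 replication genes was 1.21. The lowest lower bound of the other 15 mitosis genes was 1.53. The bounds set aside were an upper one of 3.66 for Cdc45 and a lower one of -0.04 for Kif11. The lists were chosen with earlier results of these data known, so the gap is only a description. Of 10 genes of deoxynucleotide supply 9 were higher and 1 lower, with a median of 0.62. The median of 0.52 of the replication genes lay nearer to this list, and no test was made between lists.

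**Figure D5:**
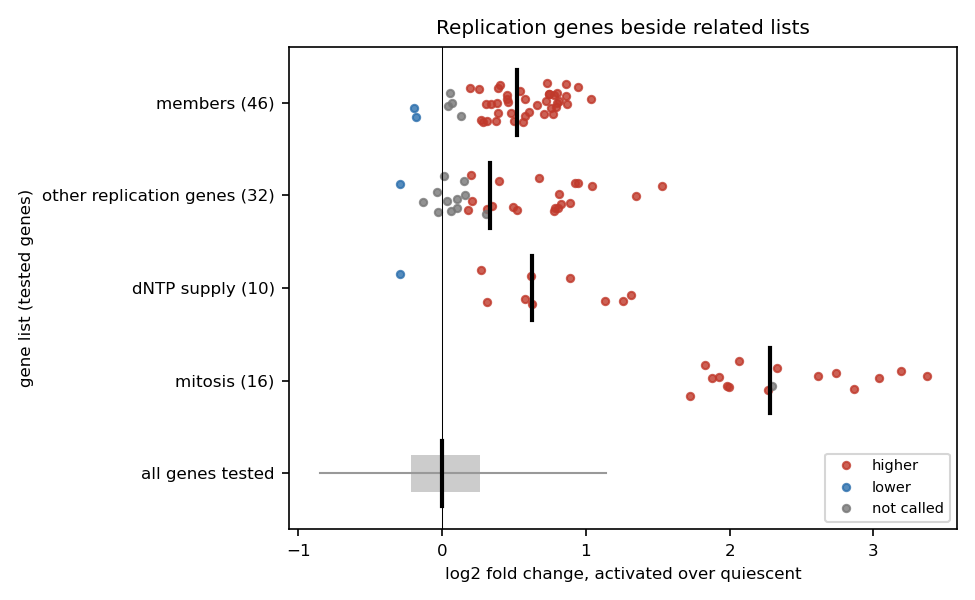
Log2 fold change, activated over quiescent, of the 46 replication genes, 32 other replication genes, 10 genes of deoxynucleotide (dNTP) supply and 16 mitosis genes, with the median of each as a bar. Below them the box and line span the 25th to 75th and the 5th to 95th percentiles of all 15223 genes tested. The replication genes reach 1.03 while the mitosis genes begin at 1.72.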

How the data were processed

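RNA sequencing counts were analysed from 3 activated and 3 quiescent CSC libraries. The authors deposited raw counts per gene, per the file headers and the values, and a gene length column, used only for levels per kilobase. The submitters' processing notes list featureCounts 1.5.0-p3, HISAT2 2.0.5 and StringTie 1.3.3b, with no roles. Chromosome names in the table belong to GRCm38. Whether counting used strand is not stated, so overlapping genes may share reads. The 46 genes and all lists were chosen with earlier results of these data known.

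All genes were fitted with edgeR 4.0.16 in R 4.3.3 (quasi-likelihood, robust, TMM scaling, filterByExpr, Benjamini-Hochberg adjustment over 15223 genes). The fit was tested on simulated data. SEs were derived from the log2 fold change and its F statistic. Genes given with all libraries were, by rule, the largest and smallest change of each functional group, Cdc6, Cdt1, Gmnn, Mcm2, Pcna and all not called higher, and Orc6, Gins4 and Rpa3 were added after their values were seen. Of the other replication genes the 4 with the smallest adjusted p and those called lower were to be named. Mcm9, Pole3, Pold4, Kif11, the neighbours of Cdc45 and the values of single epithelial, fibroblast and myeloid markers were likewise added. Counts were called unstable where CPM differed over 3-fold between libraries of a state, values under 1 CPM being raised to 1. The settings varied were scaling, the tool (DESeq2 1.42.0 or voom of limma 3.58.1), filters, thresholds, gene sets, a replicate block and leaving out each library. A further marker list is not reported here.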

Additional observations from a re-analysis of the deposited data

How the results depend on the processing

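Of the 40 genes called higher, 36 were called higher under every one of the 16 alternatives that kept the threshold of 0.05, and the other 4 were Mcm8, Gins4, Pold2 and Rpa3. A threshold of 0.01 left 36 of the 46 higher and 0 lower, where 2892 of all 15223 genes tested were higher and 2665 lower. A log2 fold change of at least 1 left 1420 genes, 904 of them higher and 516 lower. Of the 46 genes it left 1 higher and 0 lower, and of the other replication genes 3 higher and 0 lower. DESeq2 called 6298 genes in all, 3211 higher and 3087 lower, and 37 of the 46 higher and 2 lower. Leaving out each library gave 6387 to 7359 genes, 3291 to 3787 of them higher and 3096 to 3572 lower. Of the 46 genes 36 to 40 were then higher and 0 to 2 lower. Of the other replication genes 19 to 20 were higher and 1 to 2 lower. The 2 falls, of Orc2 and Orc4, were both lost without quiescent replicate 1. A change of sign was seen only in genes that were not called, in Orc5 when activated replicate 2 was left out (log2 -0.0079, over a range up to 0.11) and in Cdc45 when the third library of either state was (-0.42 without the quiescent and -0.53 without the activated one, over a range up to 0.74). The cause was not tested. Same-numbered libraries did not deviate together (correlations 0.0078, -0.030 and 0.044 across genes), and not every library correlated best with its own number. With the replicate block 7042 genes were called, 3574 higher and 3468 lower, and of the 46 genes 39 higher and 2 lower. The count ratio of Gmnn to Cdt1 stayed higher in activated CSCs without each library. The other ratios had no overlap between states, so leaving out a library could not turn their sign. The block leaves each mean difference of the ratios unchanged, so it could not turn a sign either.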

Other observations

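Promoters of the 46 genes were also searched for 2 other elements known from cell cycle genes. The CHR, searched as TTTGAA and TTCGAA on both strands, was found in 9 of 38 genes with a window (23.7%), against 16.7% of tested genes with a window. The CCAAT box, searched as CCAAT on both strands, was found in 23 of 38 genes (60.5%), against 42.5%. Median log2 fold changes of the 38 genes were 0.48 with a CHR and 0.56 without, and 0.48 with a CCAAT box and 0.56 without, because Mcm7 and Pold1 are the middle genes in both cases. These shares are descriptions, and no test was made of them. Of the 46 genes 9 lie on chromosome 5 and 6 on chromosome 8.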
